A study of Drosophila melanogaster with 13 samples.

Results

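The open chromatin around p53 and in a window set around the cell death genes hid, grim, rpr and skl was followed in Drosophila melanogaster eye-antennal discs, the larval tissue that forms the adult eye and antenna. The peaks were chosen by position alone. All merged peaks, meaning peaks called in any of the 11 samples and then joined where they overlapped, were taken from chr3R:18862000-18892000 (the p53 window, 14 peaks) and chr3L:18150000-18430000 (the cell death window, 113 peaks) of the genome build dm3. These 127 peaks are part of 36506 merged peaks with counts. Here they are numbered in order of position, R1 to R14 in the p53 window and L1 to L113 in the cell death window, and positions count from 1. The study pairs 1 peak with p53, which it places in an intron of that gene (R7, chr3R:18876971-18877300), and 1 peak with rpr (L105, chr3L:18394935-18395810). Its list of such pairs holds only genes and regions that both go up in these tumors. The opening of R7 and L105 was thus known beforehand from the same libraries, and their p-values below are no independent support for it. No other peak is tied to a gene here, because no dm3 gene annotation was used, and it was not checked where hid, grim and skl lie relative to the cell death window or whether skl is inside it.

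ATAC-seq, in which a transposase cuts accessible DNA, was done on 3 wild type libraries (1 each of the strains Optix-GFP, FRT82 and DGRP-208), on 1 library of early and 1 of late RasV12; scrib-/- tumors and on 2 libraries from discs that overexpress the JAK/STAT ligand Upd. FAIRE-seq, which recovers DNA that formaldehyde leaves free of protein, was done on 2 wild type libraries (FRT82 and CantonS), 1 early and 1 late tumor library. The tumors came from a cross. One parent line carried y,w,eyFlp together with the driver act>y+>Gal4, the marker UAS-GFP and Tub-Gal80 on an FRT82 chromosome, and the other carried y,w with UAS-RasV12 and scrib2 on an FRT82 chromosome. In these discs eyFlp makes clones that lose scrib, a cell polarity gene, and express an activated Ras, while the cells between the clones are normal. The Upd samples came from GMR-gal4 crossed to UAS-UPD:GFP, and GMR drives expression in the differentiating part of the eye disc only. Wild type, early tumor and Upd discs were taken from wandering larvae of the last instar, and late tumors 3 days after wandering began. The labels give 10 discs for each ATAC-seq and 200 for each FAIRE-seq library, but the methods give 3 whole tumors for late tumors in ATAC-seq. Every wild type is another strain or technique and every tumor stage has 1 library per technique, so that the spread between libraries holds strain and stage differences and p-values measure no more than the spread between these libraries. RNA was not measured, so the tissue label could not be set against marker expression. All samples are whole discs or tumors, in which a larger share of cells with a peak open cannot be told apart from a more open peak in each cell.

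p53 is a transcription factor that in flies, as in mammals, is known for switching on cell death genes after DNA damage. The proteins Hid, Grim, Rpr and Skl bind the caspase inhibitor Diap1 and so set caspases free, and the 4 genes lie close together on the left arm of chromosome 3. DNA upstream of rpr is known to hold an element through which p53 acts after irradiation, and in the developing eye Ras signalling is known to hold hid in check. In the RefSeq annotation of the assembly Release 6 plus ISO1 MT, in which all 5 genes were found by symbol, the order on 3L is hid, grim, rpr and skl. That annotation puts 13 other genes between hid and skl, of which CG7320, CheA75a, CG5103 and CG13700 code for proteins. On 3R it lists CG17121 before p53 and, after it, the gustatory receptor gene Gr94a and then Ctns.

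Between 2375435 and 10871706 reads per library fell in merged peaks, and between 9050 and 50292 of them in the 127 peaks. Values are given as CPM, the reads of a peak per 1000000 reads in merged peaks after TMM scaling, which corrects library sizes for composition. CPM is not divided by peak length. Groups were compared with edgeR's quasi-likelihood test over all merged peaks, with p-values adjusted by Benjamini-Hochberg over all of them. A peak is said to have opened or closed where its adjusted p was under 0.01. In the combined comparison, all 4 tumor libraries were set against all 5 wild types with the technique as a term, and every fold change below is from it unless another comparison is named.

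In the p53 window, the peak in the p53 intron went from a low level in wild type to a called peak in every tumor library. In ATAC-seq, R7 held 2.28, 2.52 and 2.13 CPM in the FRT82, DGRP-208 and Optix-GFP wild types, 35.3 in the early tumor, 55.1 in the late tumor, and 3.85 and 2.59 in the Upd samples. In FAIRE-seq it held 7.61 and 7.18 CPM in the FRT82 and CantonS wild types, and 19.2 and 42.3 in the early and late tumors. Both tumors of each technique lay above all of its wild types and, in ATAC-seq, above both Upd samples, and the late tumor was the higher of the pair in both techniques. The peak opened (edgeR, log2 fold change 3.25, SE 0.39, adjusted p = 5.61e-05), with a log2 fold change of 4.28 in ATAC-seq alone (SE 0.32, adjusted p = 6.86e-07) and 2.10 in FAIRE-seq alone (SE 0.39, adjusted p = 0.00292). Without the late FAIRE-seq tumor the FAIRE-seq value was 1.40 and no longer past the threshold (edgeR adjusted p = 0.116). R7 was called as a peak in all 4 tumor libraries and in none of the 5 wild type or 2 Upd libraries.

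**Figure D1:**
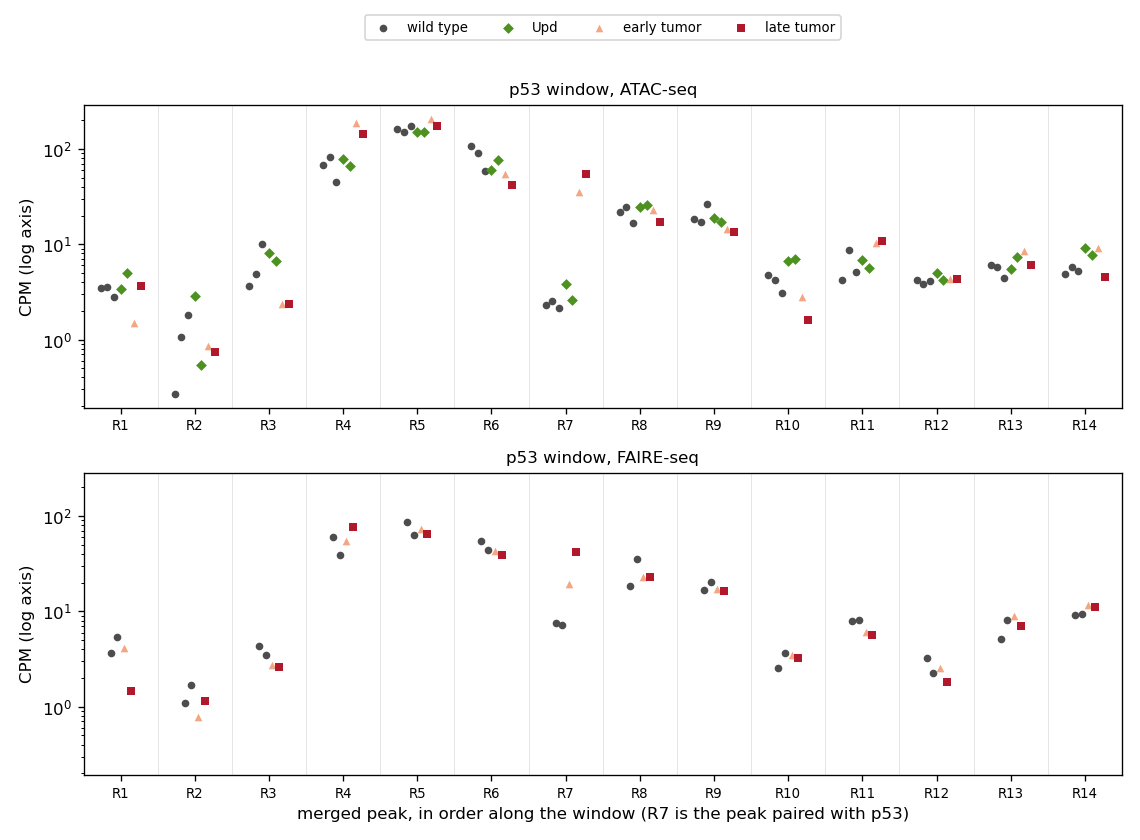
CPM on a log axis of the 14 merged peaks of the p53 window in each library, in ATAC-seq (top) and FAIRE-seq (bottom), with peaks in their order along the window and 1 point per library. R7 is the only peak where the tumors (orange and red) stand far from the wild types (grey) in both techniques, and R5 is the tallest peak in the wild types.

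A second peak of the window opened, R4 (chr3R:18872103-18872777, 675 bp), which was already called as a peak in all 11 libraries. In ATAC-seq R4 held 67.4, 81.7 and 45.2 CPM in the wild types, 186 and 144 in the early and late tumors, and 78.2 and 66.3 in the Upd samples. In FAIRE-seq it held 60.1 and 39.2 CPM in the wild types and 55.2 and 76.9 in the tumors, and the early tumor lay between the wild types. The change was under 2-fold (edgeR, log2 fold change 0.92, SE 0.23, adjusted p = 0.0062), and it fell short of the threshold when any 1 of 7 of the 9 libraries was left out, namely each ATAC-seq wild type, each ATAC-seq tumor, the CantonS FAIRE-seq wild type or the late FAIRE-seq tumor, or without the technique term, with log2 fold changes from 0.73 to 1.12 and adjusted p up to 0.084 over all alternatives. The background for these 2 calls among 14 peaks was 11.6% of all merged peaks that opened and 12.5% that closed in the combined comparison, and no peak of the p53 window closed.

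The tallest peak of the p53 window in the wild types, R5 (chr3R:18873450-18874327, 878 bp), lies between R4 and R7. It held 163, 152 and 173 CPM in the wild types, 205 and 172 in the early and late tumors, and 151 and 150.3 in the Upd samples in ATAC-seq, and 86.6 and 63.9 CPM in the wild types and 73.7 and 64.1 in the tumors in FAIRE-seq. The groups overlapped in both techniques, and the peak was not called (edgeR, log2 fold change 0.04, SE 0.15, adjusted p = 0.856). R6 (chr3R:18874630-18875144) held 106, 91.1 and 58.8 CPM in the wild types, 54.6 and 42.2 in the early and late tumors, and 59.5 and 75.9 in the Upd samples in ATAC-seq. Its FAIRE-seq values were 54.4 and 44.1 CPM in the wild types and 43.2 and 39.3 in the tumors. The tumors lay below the wild types in each technique, but the fold change missed the threshold (edgeR, log2 fold change -0.59, SE 0.21, adjusted p = 0.0402). The same held for R3 (chr3R:18868770-18868906), a low peak with 3.63, 4.90 and 9.98 CPM in the wild types, 2.37 and 2.34 in the early and late tumors, and 8.04 and 6.68 in the Upd samples in ATAC-seq and 4.35 and 3.52 CPM in the wild types and 2.74 and 2.61 in the tumors in FAIRE-seq (edgeR, log2 fold change -1.03, SE 0.36, adjusted p = 0.0367).

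The other 9 peaks of the p53 window were low, and none was called in the combined comparison. Of these, R10 is taken up again below for tumors against Upd, and R11 for opposite signs in ATAC-seq and FAIRE-seq. R8 (chr3R:18878942-18879344) held 16.9 to 35.5 CPM over the 11 libraries and R9 (chr3R:18879765-18879964) held 13.3 to 26.3. R1 and R2, at the low end of the window, and R10 to R14, beyond R9, stayed between 0.269 and 11.5 CPM in every library. Over the 12 peaks of the window that were not called, log2 fold changes ran from -1.03 (R3) to 0.30 (R13). The median over all 14 was -0.13, beside -0.03 over all merged peaks.

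Among the other 126 peaks of both windows, those whose pattern was most like that of R7 all lie in the cell death window. That window holds 113 of the 126, and peaks outside the windows were not ranked here. By Pearson's r of log2(CPM + 1) over the 11 libraries they were L90 (r = 0.986), L31 (r = 0.977), L101 (r = 0.965), L76 (r = 0.960) and L40 (r = 0.960). In ATAC-seq all of them were low in wild type and Upd and higher in the tumors. In FAIRE-seq the tumors lay above both wild types in all but L76, whose early tumor held 9.19 CPM beside 9.78 in the FRT82 wild type. An r above 0.9 with R7 was found for 17 of the other 126 peaks (13.5%) and for 2050 of all merged peaks (5.62%). These points share libraries, technique and tumor state, so that r is a description only.

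In the cell death window, 24 peaks opened and 22 closed in the tumors, out of 113. Over both windows 26 of 127 peaks opened (20.5%), against 11.6% of all merged peaks, and 22 closed (17.3%), against 12.5%. Of the called peaks of the cell death window, 23 of the 24 opening and 21 of the 22 closing ones changed past 2-fold. The threshold itself favours large changes, and this share among all called merged peaks is not given here. The median log2 fold change of the cell death window was -0.03, near the -0.03 of all merged peaks, with a range from -2.66 to 3.28. Over both windows the tumor libraries lay above all wild types in both techniques in 29 peaks (22.8%, against 17.0% of all merged peaks) and below all of them in 29 (22.8%, against 18.3%). The number that opened fell from 26 to 17 without the FRT82 or without the DGRP-208 ATAC-seq wild type, to 16 without the early and to 14 without the late ATAC-seq tumor. It was 12, with 11 closing, when the technique was left out of the model. Shares over all merged peaks are not given for these alternative fits.

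Opening and closing peaks were followed along the chromosome. Reading the 46 called peaks from L1 to L107 and passing over peaks without a call, 34 of the 45 neighbouring pairs went the same way (75.6%, against 67.9% of such pairs over all merged peaks), which made 12 stretches. The longest stretch of closing peaks held 12 calls over chr3L:18223814-18272860 (49.0 kb, 27 merged peaks). The longer opening stretches were chr3L:18174802-18203883 (6 calls among 22 peaks), chr3L:18213170-18221059 (5 calls among 9) and chr3L:18388526-18396664 (7 calls among 8). The last of these lies around the peak paired with rpr. Between the first 2 of these opening stretches, 5 of 6 peaks closed over 7.3 kb (chr3L:18205271-18212594). Most neighbouring called pairs over all merged peaks also went the same way, so stretches are not particular to this window. Neighbouring peaks can share reads at their edges and belong to the same regulatory region, so they are not independent. The largest gap without a merged peak, 28.5 kb (chr3L:18360034-18388525), comes just before the stretch around rpr.

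**Figure D2:**
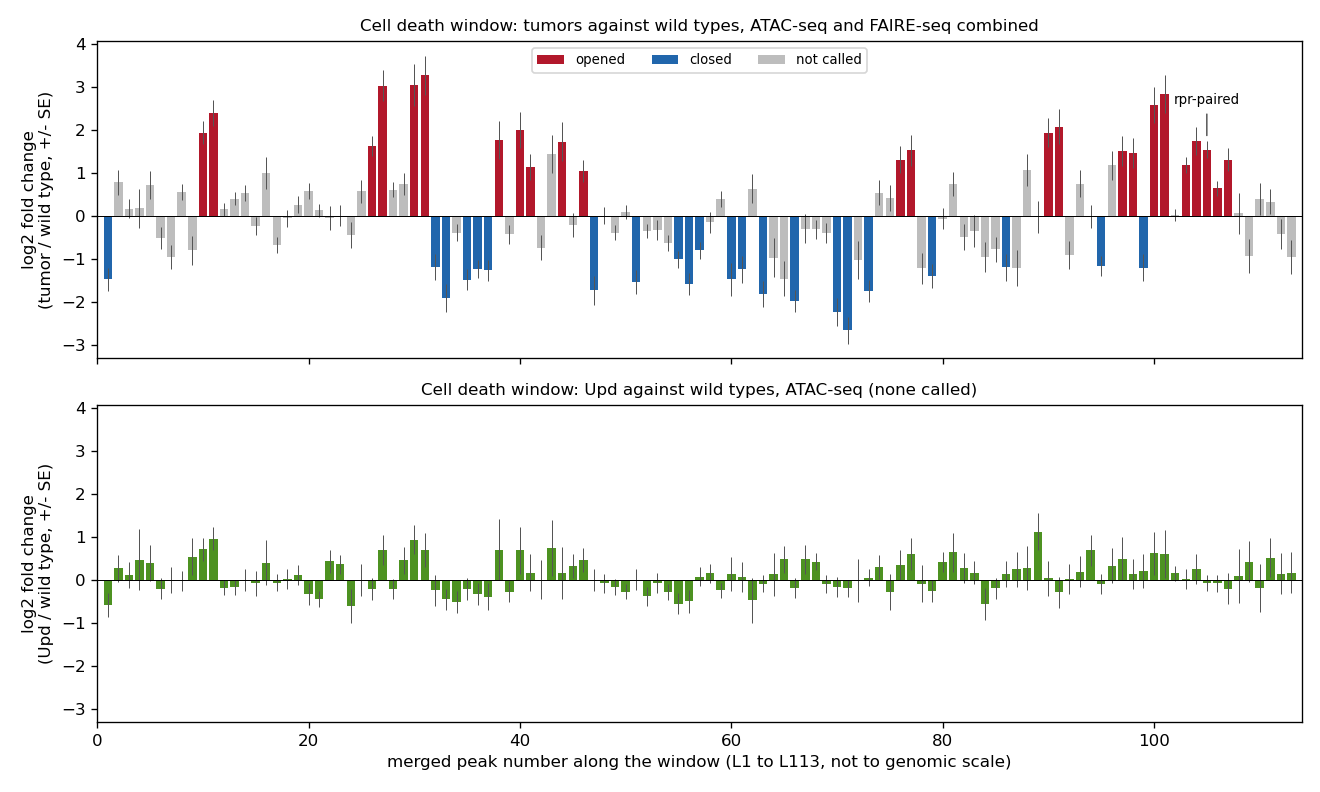
Log2 fold change (bars) with its standard error (lines) of the 113 merged peaks of the cell death window, in order along the window, for the 4 tumors against the 5 wild types in both techniques (top) and for the 2 Upd samples against the 3 ATAC-seq wild types (bottom), on the same scale. In the tumors 24 peaks opened (red) and 22 closed (blue), while no peak was called in Upd.

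The strongest openings of the whole cell death window lay side by side, L31 (chr3L:18203313-18203883) and L30 (chr3L:18202665-18203189). L31 held 2.28, 5.17 and 3.76 CPM in the wild types, 79.6 and 95.4 in the early and late tumors, and 4.69 and 7.22 in the Upd samples in ATAC-seq, and 20.3 and 14.9 CPM in the wild types and 47.7 and 76.0 in the tumors in FAIRE-seq. It had a log2 fold change of 3.28 (SE 0.45, edgeR adjusted p = 0.000162). L30 reached the highest tumor values of the 8 strongest openings, with 20.6, 12.7 and 8.51 CPM in the wild types, 232 and 269 in the early and late tumors, and 21.4 and 31.6 in the Upd samples in ATAC-seq. In FAIRE-seq L30 held 34.1 and 23.1 CPM in the wild types and 71.8 and 96.6 in the tumors, and its fold change was 3.04 (SE 0.49, edgeR adjusted p = 0.000828). For both peaks, every tumor lay above every wild type and above the Upd samples, by a wide margin in ATAC-seq. Before them, with L28 and L29 between, L27 (chr3L:18198503-18198911) rose from a level as low, 4.84, 5.17 and 3.11 CPM in the wild types, 88.2 and 54.5 in the early and late tumors, and 5.70 and 8.31 in the Upd samples in ATAC-seq. Its FAIRE-seq values were 13.4 and 10.7 CPM in the wild types and 42.8 and 43.4 in the tumors (edgeR, log2 fold change 3.03, SE 0.36, adjusted p = 5.11e-05). Unlike L30 and L31, the early ATAC-seq tumor was higher than the late one in L27.

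Another pair of strong openings, L100 (chr3L:18388526-18388798) and L101 (chr3L:18388899-18389136), lie before the peak paired with rpr, with L102 to L104 between. L101 held 0.940, 2.25 and 0.818 CPM in the wild types, 26.9 and 16.4 in the early and late tumors, and 2.85 and 1.36 in the Upd samples in ATAC-seq, and 6.52 and 4.08 CPM in the wild types and 11.7 and 18.9 in the tumors in FAIRE-seq (edgeR, log2 fold change 2.84, SE 0.45, adjusted p = 0.000255). L100 held 2.42, 1.99 and 0.655 CPM in the wild types, 24.3 and 20.0 in the early and late tumors, and 2.51 and 2.72 in the Upd samples in ATAC-seq, and 8.33 and 5.07 CPM in the wild types and 19.0 and 14.4 in the tumors in FAIRE-seq (edgeR, log2 fold change 2.59, SE 0.43, adjusted p = 0.000352). These peaks were nearly closed in the wild types of ATAC-seq, with the lowest wild type value of L100 resting on 4 reads. Neither was called as a peak in any wild type or Upd library, and each was called in 3 of the 4 tumors.

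The remaining 3 of the 8 strongest openings were L11, L91 and L40. L11 (chr3L:18175291-18175721) held 8.20, 7.02 and 7.69 CPM in the wild types, 72.3 and 71.3 in the early and late tumors, and 13.7 and 15.8 in the Upd samples in ATAC-seq, and 14.1 and 15.1 CPM in the wild types and 33.2 and 42.1 in the tumors in FAIRE-seq (edgeR, log2 fold change 2.40, SE 0.30, adjusted p = 6.67e-05). Next to it, L10 (chr3L:18174802-18175165) opened by 1.94 (SE 0.27). The Upd samples lay above all wild types of ATAC-seq in L11 but far below the tumors. L91 (chr3L:18327599-18327963) held 4.16, 4.90 and 6.71 CPM in the wild types, 43.0 and 55.0 in the early and late tumors, and 3.69 and 4.77 in the Upd samples in ATAC-seq, and 11.2 and 11.6 CPM in the wild types and 15.1 and 18.8 in the tumors in FAIRE-seq (edgeR, log2 fold change 2.08, SE 0.41, adjusted p = 0.00123). In FAIRE-seq the tumors stood only a little above the wild types. L40 (chr3L:18215230-18215368), a short peak of 139 bp, held 1.48, 0.927 and 0.491 CPM in the wild types, 6.88 and 8.93 in the early and late tumors, and 1.84 and 1.36 in the Upd samples in ATAC-seq, and 3.26 and 4.23 CPM in the wild types and 4.50 and 10.4 in the tumors in FAIRE-seq (edgeR, log2 fold change 2.00, SE 0.42, adjusted p = 0.00191). Its call was lost without the late ATAC-seq tumor and without the technique term, with log2 fold changes from 1.71 to 2.40 and an adjusted p of up to 0.0254 over the alternatives.

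**Figure D3:**
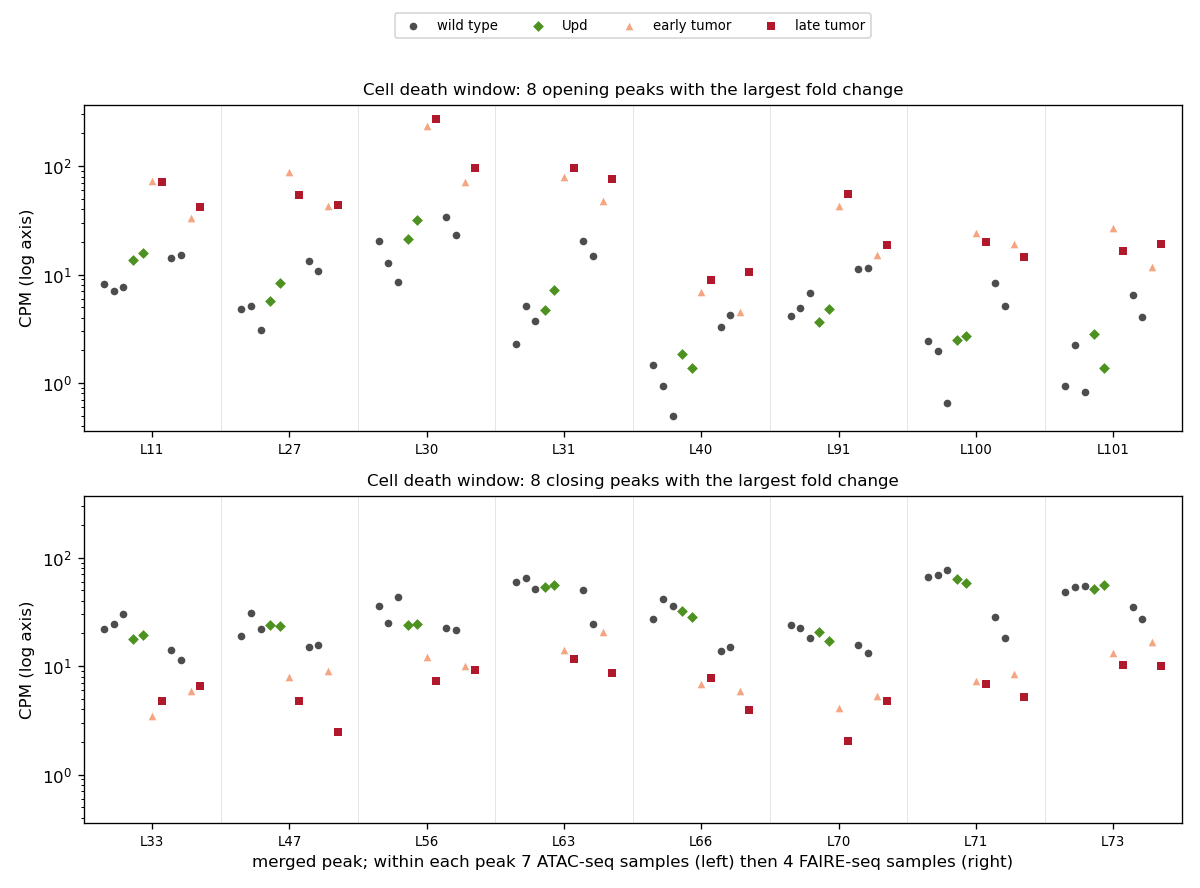
CPM on a log axis in each library for the 8 opening (top) and 8 closing (bottom) peaks of the cell death window with the largest fold change; within a peak the points are, from left, 3 ATAC-seq wild types, 2 Upd samples, early and late tumor, then 2 FAIRE-seq wild types, early and late tumor. Tumors lie above the wild types of their technique in all 8 opening peaks and below them in all 8 closing peaks, and in all of them the fold change is larger in ATAC-seq than in FAIRE-seq.

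The peak paired with rpr was open in every library and rose further in the tumors. L105 (876 bp) held 142, 124 and 146 CPM in the FRT82, DGRP-208 and Optix-GFP wild types, 539.6 in the early tumor, 576 in the late tumor, and 117 and 144 in the Upd samples in ATAC-seq. In FAIRE-seq it held 83.0 and 63.1 CPM in the FRT82 and CantonS wild types, and 128 and 156 in the early and late tumors. All tumors lay above all wild types of their technique, the Upd samples lay within or just below the ATAC-seq wild types, and the peak opened (edgeR, log2 fold change 1.54, SE 0.20, adjusted p = 7.16e-05). The log2 fold change was 2.03 in ATAC-seq alone (SE 0.19, adjusted p = 2.58e-06) and 1.01 in FAIRE-seq alone (SE 0.21, adjusted p = 0.00644). The FAIRE-seq call was lost with DESeq2's size factors, with a filter of 10 reads on average, without the CantonS wild type and without the late tumor, with log2 fold changes of 0.77 to 1.21 and adjusted p up to 0.24. The combined call was lost without the technique term (adjusted p = 0.0335).

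The neighbours of L105 were examined after its value was seen, and those on both sides opened too. L103 (chr3L:18393320-18393686) held 30.4, 28.7 and 22.4 CPM in the wild types, 76.4 and 84.0 in the early and late tumors, and 27.8 and 26.8 in the Upd samples in ATAC-seq (edgeR, log2 fold change 1.18, SE 0.19, adjusted p = 0.000328). L104 (chr3L:18394247-18394493) held 3.49, 4.24 and 4.42 CPM in the wild types, 11.4 and 27.4 in the early and late tumors, and 4.36 and 5.18 in the Upd samples in ATAC-seq and 10.9 and 9.86 CPM in the wild types and 14.7 and 31.0 in the tumors in FAIRE-seq, so that the late tumor stood above the early one by over 2-fold in both techniques (edgeR, log2 fold change 1.74, SE 0.33, adjusted p = 0.000866). On the other side, L106 (chr3L:18395979-18396281) opened by 0.65 (SE 0.17) and L107 (chr3L:18396544-18396664) by 1.31 (SE 0.26). The call of L106 was near the threshold (edgeR adjusted p = 0.0086) and was lost with total counts, without the technique term, and when any 1 library other than the FRT82 FAIRE-seq wild type or the late FAIRE-seq tumor was left out, with log2 fold changes from 0.56 to 0.76 and adjusted p up to 0.396 over the alternatives. That of L107 was lost without the late ATAC-seq tumor and without the technique term (adjusted p up to 0.0214), and that of L104 without the technique term (0.0168). In the middle of this stretch L102 (chr3L:18391238-18391886), an open peak in every library, held 149, 134 and 141 CPM in the wild types, 164 and 139 in the early and late tumors, and 164 and 148 in the Upd samples in ATAC-seq. Its FAIRE-seq values were 61.2 and 68.7 CPM in the wild types and 65.3 and 61.9 in the tumors, with tumors and wild types overlapping in both techniques and no call (edgeR, log2 fold change 0.02, SE 0.14, adjusted p = 0.931). L108 to L113, beyond L107 up to the end of the window, held no call.

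**Figure D4:**
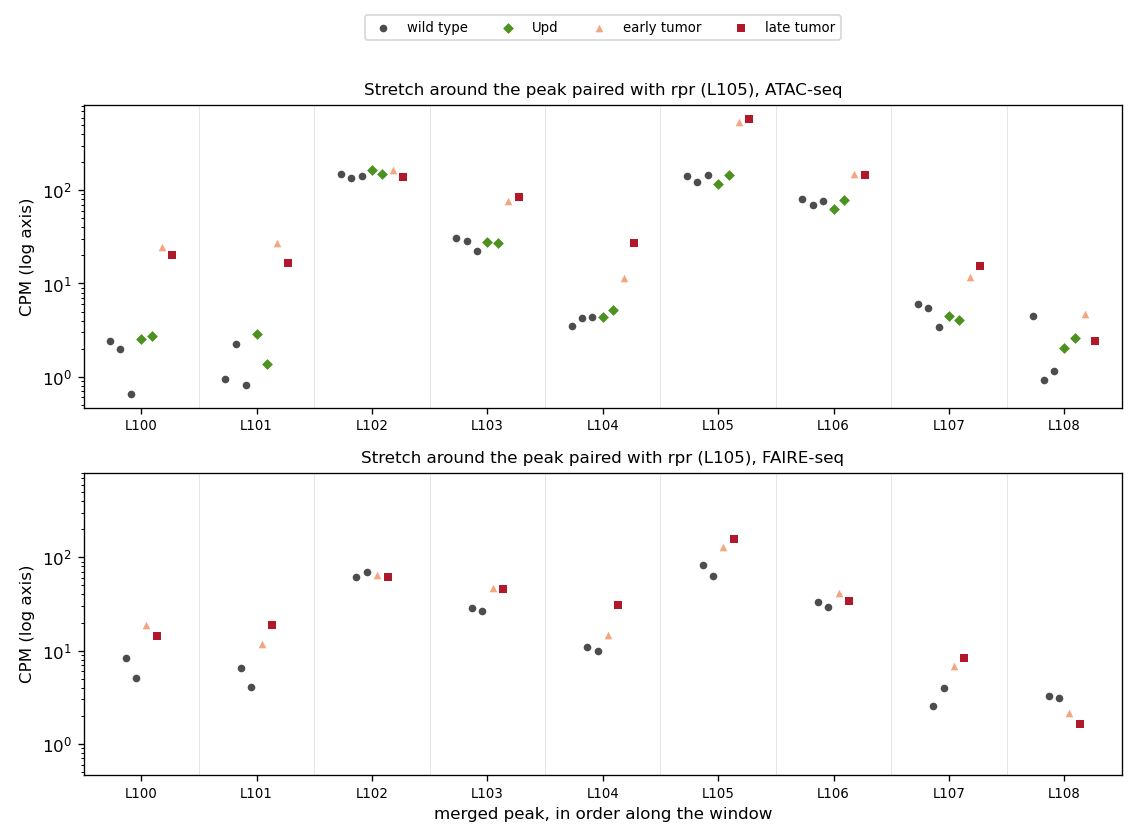
CPM on a log axis of the merged peaks L100 to L108 in each library, in ATAC-seq (top) and FAIRE-seq (bottom), in order along the chromosome with 1 point per library. The tumors stand above the wild types and Upd samples in L100, L101 and L103 to L107, and overlap them in L102.

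Of the 8 strongest closings, all but L33 lay in the longest closing stretch. L71 (chr3L:18269330-18269786) held 66.9, 68.9 and 76.4 CPM in the wild types, 7.31 and 6.80 in the early and late tumors, and 64.2 and 58.0 in the Upd samples in ATAC-seq. In FAIRE-seq L71 held 28.6 and 18.3 CPM in the wild types and 8.41 and 5.22 in the tumors, so that every tumor lay below every wild type (edgeR, log2 fold change -2.66, SE 0.32, adjusted p = 5.11e-05). Next to it, L70 (chr3L:18268817-18269109) held 23.9, 22.3 and 18.0 CPM in the wild types, 4.09 and 2.02 in the early and late tumors, and 20.8 and 17.2 in the Upd samples in ATAC-seq, and 15.6 and 13.1 CPM in the wild types and 5.28 and 4.73 in the tumors in FAIRE-seq (edgeR, log2 fold change -2.24, SE 0.33, adjusted p = 0.00016). The Upd samples kept within or close to the range of the wild types in both peaks. L66 (chr3L:18264291-18264690) and L73 (chr3L:18272419-18272860), on either side of them, closed by log2 fold changes of -1.98 (SE 0.25, edgeR adjusted p = 6.98e-05) and -1.75 (SE 0.25, edgeR adjusted p = 0.000138). In ATAC-seq L66 held 27.4, 41.9 and 35.5 CPM in the wild types, 6.88 and 7.76 in the early and late tumors, and 32.2 and 28.5 in the Upd samples. L73 held 48.2, 54.0 and 55.2 CPM in the wild types, 13.3 and 10.3 in the early and late tumors, and 51.6 and 56.3 in the Upd samples there. Neither L66 nor L71 was called as a peak in any tumor library, while both were called in the 3 ATAC-seq wild types and both Upd samples.

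The other 4 of the 8 strongest closings were spread from L33 to L63. L33 (chr3L:18205579-18205843) lies just past the pair of strongest openings and held 21.8, 24.6 and 30.4 CPM in the wild types, 3.44 and 4.78 in the early and late tumors, and 17.8 and 19.2 in the Upd samples in ATAC-seq, and 14.1 and 11.3 CPM in the wild types and 5.87 and 6.53 in the tumors in FAIRE-seq (edgeR, log2 fold change -1.90, SE 0.33, adjusted p = 0.000471). L63 (chr3L:18246149-18246754) held 59.1, 64.5 and 51.4 CPM in the wild types, 14.2 and 11.7 in the early and late tumors, and 53.4 and 55.4 in the Upd samples in ATAC-seq, and 50.0 and 24.4 CPM in the wild types and 20.5 and 8.65 in the tumors in FAIRE-seq (edgeR, log2 fold change -1.82, SE 0.30, adjusted p = 0.000357). In FAIRE-seq the CantonS wild type of L63 was close to the early tumor. L47 (chr3L:18223814-18224045) held 19.1, 30.7 and 21.8 CPM in the wild types, 7.96 and 4.78 in the early and late tumors, and 24.0 and 23.3 in the Upd samples in ATAC-seq, and 14.9 and 15.5 CPM in the wild types and 9.0 and 2.45 in the tumors in FAIRE-seq (edgeR, log2 fold change -1.73, SE 0.34, adjusted p = 0.00112). L47 was lower in the late than in the early tumor in both techniques. L56 (chr3L:18233972-18234110) held 35.6, 25.0 and 43.5 CPM in the wild types, 12.3 and 7.23 in the early and late tumors, and 24.0 and 24.7 in the Upd samples in ATAC-seq, and 22.5 and 21.6 CPM in the wild types and 9.98 and 9.14 in the tumors in FAIRE-seq (edgeR, log2 fold change -1.58, SE 0.25, adjusted p = 0.000302). It was the only one of the 127 peaks called in all 5 wild types and in no tumor (0.787%, against 0.967% of all merged peaks). In ATAC-seq alone, L47 and L56 lost their calls without the late tumor, at log2 fold changes of -1.57 (edgeR adjusted p = 0.0254) and -1.49 (edgeR adjusted p = 0.028).

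CTCF, an insulator protein, was mapped by ChIP-seq in CantonS discs, with 1 library and 1 input. Of its peaks, 6 lie in the cell death window and none in the p53 window. They touch 5 of the 127 merged peaks by at least 1 bp (3.94%, against 8.19% of all merged peaks), all in L50 to L56, that is, within chr3L:18227251-18234110. With an overlap of at least 40% of the CTCF peak, 2 merged peaks were left. L50 (chr3L:18227251-18228245, 995 bp) was the tallest peak of the window in the wild types, with 354, 314 and 297 CPM in the wild types, 413 and 347 in the early and late tumors, and 262 and 267 in the Upd samples in ATAC-seq. Its FAIRE-seq values were 206 and 135 CPM in the wild types and 174 and 153 in the tumors, and it was not called (edgeR, log2 fold change 0.09, SE 0.16, adjusted p = 0.71). L55 (chr3L:18233543-18233958, 416 bp), the next in height after L21, held 262, 205 and 334 CPM in the wild types, 117 and 105 in the early and late tumors, and 147 and 213 in the Upd samples in ATAC-seq and 56.9 and 45.4 CPM in the wild types and 34.4 and 31.5 in the tumors in FAIRE-seq. There the tumors lay below every wild type, and the peak closed (edgeR, log2 fold change -1.01, SE 0.19, adjusted p = 0.000965).

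The CTCF peak over L55 also touched L56, 13 bp from L55, another touched both L51 and L52, and 2 of the 6 touched no merged peak. L51 (chr3L:18228920-18229038) closed by -1.54 (SE 0.28, edgeR adjusted p = 0.000751), with 42.5, 26.2 and 30.8 CPM in the wild types, 18.1 and 7.34 in the early and late tumors, and 29.8 and 36.2 in the Upd samples in ATAC-seq. L52 (chr3L:18229196-18229512) held 134, 101 and 153 CPM in the wild types, 102 and 107 in the early and late tumors, and 80.9 and 116 in the Upd samples in ATAC-seq and missed the threshold (edgeR, log2 fold change -0.35, SE 0.17, adjusted p = 0.117). So 3 of the 5 peaks under a CTCF peak closed and none opened, of which L55 and L56 lie under the same CTCF peak. Of all 2989 merged peaks under a CTCF peak 5.79% closed and 3.38% opened. Without the technique term L55 and L51 were no longer past the threshold, at adjusted p = 0.154 and 0.0335 (edgeR). The second tallest peak of the window, L21 (chr3L:18187707-18188744, 1038 bp), touched no CTCF peak and held 268, 238 and 297 CPM in the wild types, 288 and 301 in the early and late tumors, and 177 and 212 in the Upd samples in ATAC-seq. It was not called (edgeR, log2 fold change 0.13, SE 0.15, adjusted p = 0.542), and its FAIRE-seq values were 164 and 106 CPM in the wild types and 146 and 157 in the tumors. Per kb of peak, the mean over the 5 wild types was 262 CPM for L50, 207 for L21, 434 for L55, 127 for the rpr-paired L105, 145 for R5 and 13.2 for the p53-paired R7.

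Opening peaks were lower in the wild types than closing peaks, which follows in part from how peaks were listed and called. The 26 opening peaks had a median of 6.06 CPM over the 5 wild types (range 1.34 to 112), and 19 of them were called as a peak in none of the 5 wild types. The 22 closing peaks had a median of 20.4 CPM (range 6.04 to 181), and each was called in at least 1 wild type. Among the opening peaks 13 were called in all 4 tumors, while 16 of the closing peaks were called in no tumor. These descriptions use the same wild type libraries as the calls and carry no test. A merged peak is listed only if at least 1 library called it. Peaks low in the wild types are thus listed mostly through other libraries, and peaks low in the tumors likewise. The same counts over all merged peaks that opened or closed are not given here. Median lengths were 303 bp for opening and 320 bp for closing peaks, beside 281 bp for all 127.

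ATAC-seq alone called more peaks than FAIRE-seq alone. In ATAC-seq, with 2 tumors against 3 wild types, 32 of the 127 peaks opened (25.2%, against 13.5% of all merged peaks) and 22 closed (17.3%, against 12.8%). Without the early or late ATAC-seq tumor these counts were 21 and 9, or 20 and 7. In FAIRE-seq, with 2 tumors against 2 wild types, 6 opened (4.72%, against 1.58%), namely R7, L11, L27, L30, L31 and L105, and none closed (against 0.781%). At an unadjusted p under 0.05, 23 peaks were lower in FAIRE-seq tumors, and DESeq2 called 1 closing peak at the same adjusted threshold. Shares over all merged peaks are not given for these counts. Without the late FAIRE-seq tumor 1 peak opened. Leaving out the FRT82 wild type, the CantonS wild type or the early tumor gave 1, 3 and 6 closing peaks.

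The techniques share no library, so the sign in FAIRE-seq is a separate measurement of the peaks called in ATAC-seq. Of the 32 peaks that opened in ATAC-seq, 31 had a log2 fold change above 0 in FAIRE-seq (96.9%), against 95.3% of all merged peaks that opened in ATAC-seq. All of the 22 that closed were below 0 in FAIRE-seq, against 97.3%. The median log2 fold change of the 32 was 2.23 in ATAC-seq and 0.76 in FAIRE-seq, and that of the 22 was -1.60 and -1.04. The peaks were selected on the ATAC-seq values, so the larger ATAC-seq medians are in part a product of that choice. Tested for each peak as an interaction of tumor and technique, no peak passed the threshold (background 0.0110% of all merged peaks). At an unadjusted p under 0.05 there were 37 of 127. For R7 the difference, ATAC-seq minus FAIRE-seq, was 2.20 (SE 0.52, edgeR adjusted p = 0.0379), and for L105 it was 1.05 (SE 0.29, edgeR adjusted p = 0.0703). DESeq2 called 6 peaks in this comparison, all with the larger rise in ATAC-seq, and these were R7, L11, L27, L30, L31 and L91. Shares over all merged peaks are not given for these 6 or for the 37. Whether the difference between techniques is particular to these peaks was not tested. Total count scaling gave 2 such calls, and leaving out the FRT82 or the DGRP-208 ATAC-seq wild type gave 1 each.

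**Figure D5:**
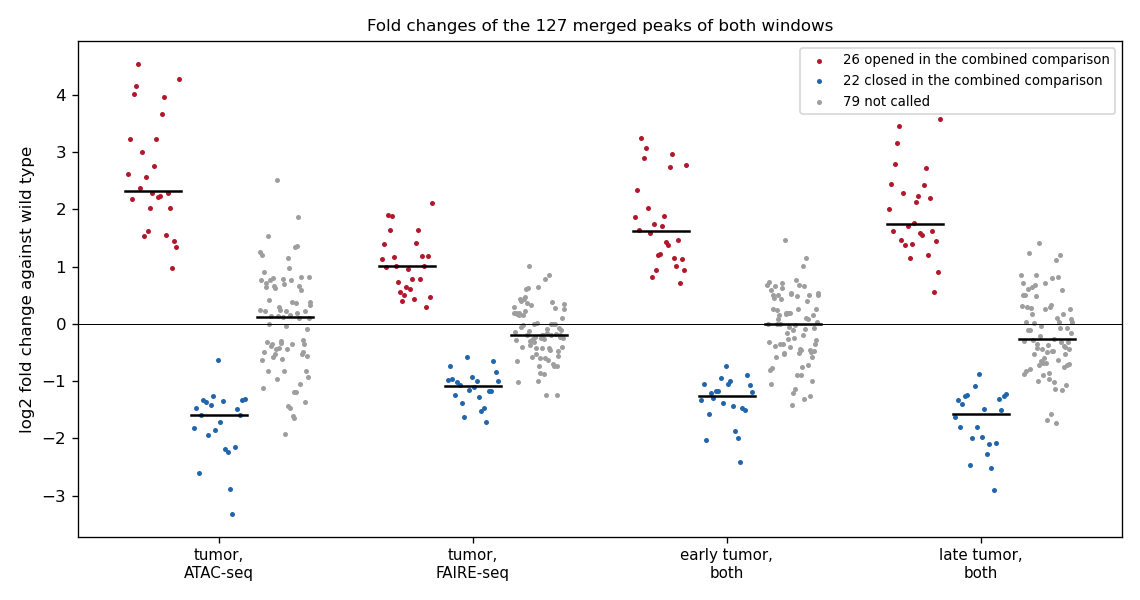
Log2 fold change against wild type of all 127 merged peaks (points) in ATAC-seq alone, in FAIRE-seq alone, and in early and late tumors over both techniques, split by their call in the combined comparison, with black lines at the medians. The split was made with these same libraries, and the medians of the 26 opening peaks were 2.33 in ATAC-seq and 1.00 in FAIRE-seq.

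Early and late tumors were each compared with the wild types in a model of both techniques. In early tumors 10 of the 127 peaks opened (7.87%, against 4.21% of all merged peaks) and 6 closed (4.72%, against 2.86%). In late tumors 18 opened (14.2%, against 9.70%) and 17 closed (13.4%, against 8.52%). Both comparisons use the same wild types. R7 opened in each, by 2.78 in early tumors (SE 0.43, edgeR adjusted p = 0.00187) and 3.59 in late tumors (SE 0.42, edgeR adjusted p = 0.000137), and so did L105, by 1.46 (SE 0.24, adjusted p = 0.00214) and 1.62 (SE 0.24, adjusted p = 0.000377). Without the early ATAC-seq tumor no peak opened or closed in early tumors, and without the late one none did in late tumors, in the latter case with R7 at a log2 fold change of 2.96 (edgeR adjusted p = 0.0166) and L105 at 1.28 (adjusted p = 0.0418). Without the early ATAC-seq tumor, R7 was at 1.77 (edgeR adjusted p = 0.236) and L105 at 0.97 (adjusted p = 0.301) in early tumors. The early counts also moved past 1.5-fold without the DGRP-208 ATAC-seq wild type (6 opened, 2 closed), and the early closing count did so without the FRT82 wild type of either technique (2 each) and without CantonS (11). The late closing count was 9 or 11 without the FRT82 or DGRP-208 ATAC-seq wild type, and 8 without the FRT82 FAIRE-seq wild type or the late FAIRE-seq tumor.

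Set against each other in the model with the wild types, late and early tumors gave no call among the 127 peaks or among all merged peaks (background 0%). At an unadjusted p under 0.05 there were 6 peaks, 1 higher and 5 lower in late tumors, and DESeq2 called none. For these 6 the share over all merged peaks is not given here, and they are no result about these windows. Each stage has 1 library per technique, so a missing call does not show that the stages were equal. R7 had a log2 difference, late minus early, of 0.81 (SE 0.50), with the late tumor higher in both techniques, and L105 one of 0.16 (SE 0.30). The paper shows the p53 intron region as an example of gradual opening. The 1 peak that was higher was L104, beside the peak paired with rpr, at 1.19 (SE 0.38, unadjusted p = 0.00689, edgeR adjusted p = 1). In a fit of the 4 tumor libraries alone it passed the threshold, at a log2 difference of 1.14 (SE 0.26, edgeR adjusted p = 0.00279), and it was the only one of the 127 to do so. The share of all merged peaks past the threshold in that fit is not given here, so this call is not shown to be particular to L104.

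In the Upd samples no peak of either window passed the test. Against the 3 ATAC-seq wild types none of the 127 peaks opened or closed (background 0.00548% and 0.0110% of all merged peaks). At an unadjusted p under 0.05 there were 8 peaks, 6 higher and 2 lower in Upd, and DESeq2 called none. The share of all merged peaks at that unadjusted p is not given here, so the 8 are no result about these windows. Log2 fold changes ran from -0.60 to 1.12. R7 stood at 0.47 (SE 0.40, edgeR adjusted p = 0.841) and L105 at -0.06 (SE 0.18, edgeR adjusted p = 0.965), beside 4.28 and 2.03 for the ATAC-seq tumors against the same wild types. Of the peaks named above, the highest Upd value was that of L11, 0.96 (SE 0.26, edgeR adjusted p = 0.449), beside 3.23 for the tumors. These side-by-side values share their wild type libraries.

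Tumors also differed from the Upd samples directly. Of the 127 peaks 34 were more open in the ATAC-seq tumors than in the Upd samples (26.8%, against 16.3% of all merged peaks) and 25 were less open (19.7%, against 16.0%). R7 was higher in the tumors by 3.81 (SE 0.31, edgeR adjusted p = 1.55e-06) and L105 by 2.08 (SE 0.16, edgeR adjusted p = 1.17e-06). In the p53 window, R3 and R10 (chr3R:18881948-18882112) were less open in the tumors, by -1.66 (SE 0.36, edgeR adjusted p = 0.00211) and -1.74 (SE 0.39, edgeR adjusted p = 0.0029). R10 held 4.70, 4.24 and 3.11 CPM in the wild types, 2.80 and 1.59 in the early and late tumors, and 6.70 and 6.95 in the Upd samples in ATAC-seq. Its call was lost with DESeq2, without the late tumor and without either Upd sample, with log2 fold changes from -2.11 to -1.30 and adjusted p up to 0.0257 over the alternatives, and that of R3 was lost without the first Upd sample (adjusted p = 0.0202). Without the second Upd sample 16 peaks were less open in the tumors.

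The peaks called in each library were compared as well. Of the 127 merged peaks, 62 to 74 were called in an ATAC-seq library (48.8% to 58.3%, against 49.8% to 61.1% of all merged peaks). In a FAIRE-seq library 45 to 52 were called (35.4% to 40.9%, against 40.5% to 50.9%), so fewer were called in FAIRE-seq over all merged peaks too. In all 11 libraries 26 were called (20.5%, against 24.7% of all merged peaks), and 24 were called in 1 library only (18.9%, against 20.9%). In all 4 tumors and no wild type, 6 were called (4.72%, against 1.66% of all merged peaks). These were R7, L10, L11, L27, L31 and L91, and none of them was called in Upd. In at least 1 tumor and no wild type, 28 were called (22.0%, against 16.6%), and again none of them in Upd. How often peaks of either pattern were called in Upd over all merged peaks is not given here. Their absence from Upd is thus not shown to be particular to these windows.

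Summed over all its peaks, the cell death window held more signal in the ATAC-seq tumors, 5193 and 4869 CPM in the early and late tumor, than in the ATAC-seq wild types, 3804 to 4235 CPM. The Upd samples held 3439.6 and 3824 CPM. In FAIRE-seq the tumors, at 2675 and 2635 CPM, lay between the wild types at 2313 and 2998 CPM. The p53 window summed to 558 and 478 CPM in the ATAC-seq tumors and 358 to 411 in the wild types, and groups overlapped in FAIRE-seq. These sums are a description, with no test.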

How the data were processed

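Open chromatin of Drosophila melanogaster eye-antennal discs was measured in 7 ATAC-seq and 4 FAIRE-seq libraries. The authors aligned reads to the dm3 genome (FlyBase r5.53) by bowtie2, removed those with a mapping quality under 4 or from the bacterium Wolbachia, centred ATAC-seq reads on the transposase cut sites and extended these by 5 bp on either side. They called peaks with MACS2 in each library at q = 0.01, merged the peaks of all libraries, and counted reads per merged peak with htseq-count. The deposited counts are raw, and the deposited peak lists hold positions without a score. Merging uses tumor peaks too, so a peak can be listed that no wild type library has.

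Counts were tested here with edgeR 4.0.16 in R 4.3.3 (TMM, robust quasi-likelihood F-test, Benjamini-Hochberg over all merged peaks with a read, threshold 0.01). A term for the technique was part of the combined and stage models. Comparisons within a technique hold only the libraries compared. The SE was taken from the fold change and the F statistic. The test was run on simulated counts with the same spread for every peak and no technique or strain effect. That check cannot speak for the error rates in these libraries. The windows, gene lists and naming rule were chosen with earlier results of these data known. The rule named the peaks paired with p53 or rpr, those called in the p53 window, the 8 strongest openings and 8 strongest closings, the 3 tallest wild type peaks of the cell death window and the tallest of the p53 window, peaks under a CTCF peak, those called in the interaction, late against early or Upd comparison (none), and the 5 most like the p53 peak. Other peaks were named after their values were seen. Totals of 2375435 to 10871706 reads limit the precision of low peaks. Reads carry no molecular identifiers.

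The alternatives were DESeq2 1.42.0 (Wald test), its size factors or total counts in edgeR, a filter at a mean of 10 counts, leaving out each library in turn, no technique term, separate fits of the stages, all 7 ATAC-seq libraries for Upd, and a 40% overlap. An adjusted p of 0.05 was added after seeing the data. A pathway list and motif searches were not used, since they need a dm3 genome. Gene order came from RefSeq (assembly Release 6 plus ISO1 MT), whose coordinates were not used. Figures were drawn with matplotlib 3.10.9.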

Additional observations from a re-analysis of the deposited data

Results flagged for a closer look

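Peaks were singled out where all tumors of one technique lay above, and all tumors of the other below, every wild type of their technique. This was so for 3 of the 127 peaks, and for 2.26% of all merged peaks. R11 (chr3R:18883186-18883389) had log2 fold changes of 0.82 in ATAC-seq and -0.40 in FAIRE-seq. L75 (chr3L:18275832-18276017) had 0.97 and -0.20. L23 (chr3L:18192142-18192355) had -0.35 and 0.61. The interaction of tumor and technique, which tests this difference, was not past the threshold in any of them (edgeR adjusted p = 0.226 for R11, 0.25 for L75 and 0.253 for L23).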

How the results depend on the processing

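Apart from the technique term, libraries were not paired, because the labels number only the Upd samples and so give no replicate pairs between groups. Without the technique term the combined comparison had 12 opening and 11 closing peaks. DESeq2 gave 16 opening and 14 closing peaks in early tumors, 1 closing peak in FAIRE-seq and 6 in the interaction. Total counts gave 1 closing peak in FAIRE-seq beside 6 that opened, and 2 in the interaction, and moved the median of all merged peaks by 0.11 for Upd, -0.17 for tumors against Upd and -0.11 for FAIRE-seq (log2). A separate fit of the stages called 1 peak higher in late tumors, and 2 peaks met the 40% CTCF overlap. With each library left out in turn, 14 to 25 peaks opened and 15 to 25 closed in the combined comparison, 20 to 31 and 7 to 25 in ATAC-seq, 1 to 9 and 0 to 6 in FAIRE-seq, 0 to 14 and 0 to 11 in early tumors, 0 to 21 and 0 to 20 in late tumors, 23 to 34 and 16 to 34 in tumors against Upd, and 0 to 1 peaks were called in the interaction. Of the 26 opening and 22 closing peaks, 14 and 15 were called in every one of these combined fits. At an adjusted p of 0.05, added after seeing the data, 37 opened and 33 closed. For the counts of all these alternatives, shares over all merged peaks are not given here. Whether the windows stay above the share of all merged peaks under them was not tested. In FAIRE-seq alone L11, L30 and L31 lost their calls without the late tumor. In ATAC-seq alone L51 lost its call without the FRT82 or Optix-GFP wild type or the late tumor, L55 without either tumor, and R4 without the early tumor. A separate fit of the stages put L104 past the threshold in late against early (edgeR adjusted p = 0.00279). Peaks that were not called changed sign as follows (log2 fold change). R5 in the combined comparison ran from -0.0525 to 0.160 with libraries left out and was -0.0122 without the technique term, and L50 ran from -0.0057 to 0.239. L102 ran from -0.0507 to 0.0602 with libraries left out, and was -0.0305 with total counts and -0.0669 without the technique term. L105 ran from -0.212 to 0.653 in late against early and from -0.232 to 0.0910 in Upd with libraries left out, and was 0.0468 in Upd with total counts. All other alternatives run kept the sign of the named fold changes. Each stage comparison rests on 1 library per stage and technique.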
